A study of Mus musculus with 6 samples.

Results

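The 10 genes described here encode parts of the RNA polymerase I machinery and abundant proteins of the nucleolus. They are the polymerase subunits Polr1a, Polr1b, Polr1c and Polr1d, the initiation factors Ubtf, Rrn3 and Taf1b, and the nucleolar proteins Ncl, Npm1 and Fbl. They were listed because SIRT7, the protein overexpressed in the study, is a nucleolar activator of ribosomal RNA gene transcription. This rule used no measured value, but earlier results of these data were known when the genes were chosen. All probes that carried the name of a listed gene and were not control spots were taken, which gave 16 probes for the 10 genes, out of 61307 probes and 50090 gene names on the array. All 10 genes were found, 4 of them with more than 1 probe.

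The cells were NIH3T3, an established line of mouse embryonic fibroblasts, which received by retrovirus either GFP alone or SIRT7 fused to GFP (SIRT7GFP). GFP cells were the control. LT7 cells were the long, spindle-shaped cells that overexpressed SIRT7, and ST7 cells were small SIRT7-overexpressing cells with an epithelial appearance. All 3 lines had been expanded from single cell clones, so a group stands for 1 line, and all were grown in the same serum-containing medium. Each group had 2 replicates from different passages, so that p-values measure the spread between passages of a line. RNA of each replicate was labelled with Cy3 and hybridized to a 1-colour Agilent array, and the 6 arrays were on 1 slide.

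RNA polymerase I transcribes a single kind of gene, the repeated ribosomal DNA, and its product is cut and modified into the large ribosomal RNAs inside the nucleolus. UBF, the product of Ubtf, and the selectivity factor SL1, of which TAF1B is a subunit, assemble on the ribosomal DNA promoter, and TIF-IA, the product of Rrn3, brings in the polymerase. Nucleolin, nucleophosmin and fibrillarin then act on the transcript and on the forming ribosomal particles. The arrays measured the messenger RNAs of these proteins and not ribosomal RNA synthesis.

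Probes that the scanner software marked as well above background are called detected here, and their share ran from 25.5% to 57.5% over the arrays, and the arrays labelled ST7 were the lowest of the 3 groups. The 75th percentile of the signal was 384 and 323 in GFP, 341 and 317 in LT7, but 16.3 and 17.1 in ST7, and its subtraction on the log2 scale, the normalization of the study, moved the median ST7 change over all probes from -0.68 to 3.72 in log2. Sirt7 itself was measured by a pair of probes that share 40 bases. The brighter had signals of 3125 and 2480 in GFP, 3633 and 2782 in LT7, but 2.85 and 3.28 on the arrays labelled ST7, where it was not detected. Whether these probes match the introduced SIRT7 sequence is not given in the sources used here, so ST7 below stands for the arrays so labelled. Of 8 fibroblast markers, 4 (Col3a1, Fn1, Thy1 and Pdgfrb) were not detected on the ST7 arrays, and the summed signal of the list was 317116 and 313286 in GFP, 327365 and 315734 in LT7, but 15055 and 16594 in ST7. Of 8 epithelial markers, 4 were detected on both ST7 arrays and 3 on neither, with a median log2 change from GFP of 0.69 before scaling. Their summed signal was 194 and 115 in GFP, 177 and 138 in LT7, against 2215 and 2021 in ST7. For 7 blood cell markers it was 1155 and 996, 630 and 616, and 106 and 102, with Ptprc not detected on any array, and for 6 pluripotent cell markers 166 and 232, 262 and 186, and 110 and 151, with Nanog and Pou5f1 not detected on their brightest probes. Of these 6, 1 was detected on both ST7 arrays and 5 on neither. After the shift limma called 4 of them higher in ST7 than in GFP and none lower, with log2 changes up to 9.42, where 70.7% of all probes were called higher. The part of these differences in the results for the 10 genes was not tested. LT7 replicate 1 was alone in its scan, and its spike-in RNAs stood 3.47 above the mean of the arrays on the log2 scale while the other 5 arrays lay between -0.80 and -0.55.

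In LT7 no difference from GFP was detected in the messenger RNAs of the genes, and for Fbl, whose only probe was saturated in both groups, none could be. Taking each gene by its brightest probe, the log2 changes ran from -0.24 for Ncl to 0.22 for Ubtf, with standard errors (SE) of 0.20 to 0.33. No gene passed the limma test at an adjusted p under 0.05, none had an unadjusted p under 0.05, and none met the study's fold rule, read here on the log2 scale as a ratio of 0.8 or more one way in each replicate with a mean beyond 1. Over all probes limma called 0.044% higher and 0.132% lower in LT7, and the fold rule 2.9% higher and 3.03% lower. The median log2 change of the 10 genes was -0.11, and that of all probes was 0.17.

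On the arrays labelled ST7 the signals of all 10 genes lay below those of GFP and LT7 before scaling, and the size of the gap was very uneven. After the percentile shift, 8 genes (the 4 polymerase subunits, Ubtf, Rrn3, Taf1b and Ncl) were lower and 2 (Npm1 and Fbl) were higher than in GFP by limma, the latter pair being lower without scaling and with spike-in scaling, and Taf1b higher with normexp background correction. Fbl, the brightest probe of Npm1 and that of Ncl were saturated on both GFP arrays, so their ST7 changes are upper limits. Of all probes, 70.7% were called higher and 19.8% lower. The fold rule called 2 genes higher and 6 lower, against 70.9% and 19.1% of all probes, and left out Taf1b and Ncl. Against LT7, 2 genes were higher and 7 lower, against 71% and 19.7% of all probes, and Ncl missed the threshold with an adjusted p of 0.0895 (limma).

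The shares over all probes include many that measured no transcript in GFP. Of the 18111 probes for RefSeq transcripts that were detected on both GFP arrays, 36.7% were called higher and 47.7% lower in ST7, and of the 6465 with a mean GFP signal of at least 1000, 23.8% and 70.8%. Among the 16 probes of the 10 genes, 3 were higher and 13 lower. Of the 13 with such a bright GFP signal, 3 were higher and 10 lower, and their median log2 change of -2.97 compares with -4.06 over the 6465 bright probes. The lower calls among these 13 probes were thus about as frequent as among transcripts of like brightness. Several of the 13 belong to the same gene, and Polr1b and Taf1b, with dimmer GFP signals, have none among them. This comparison with bright probes was chosen after the data had been seen.

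**Figure D1:**
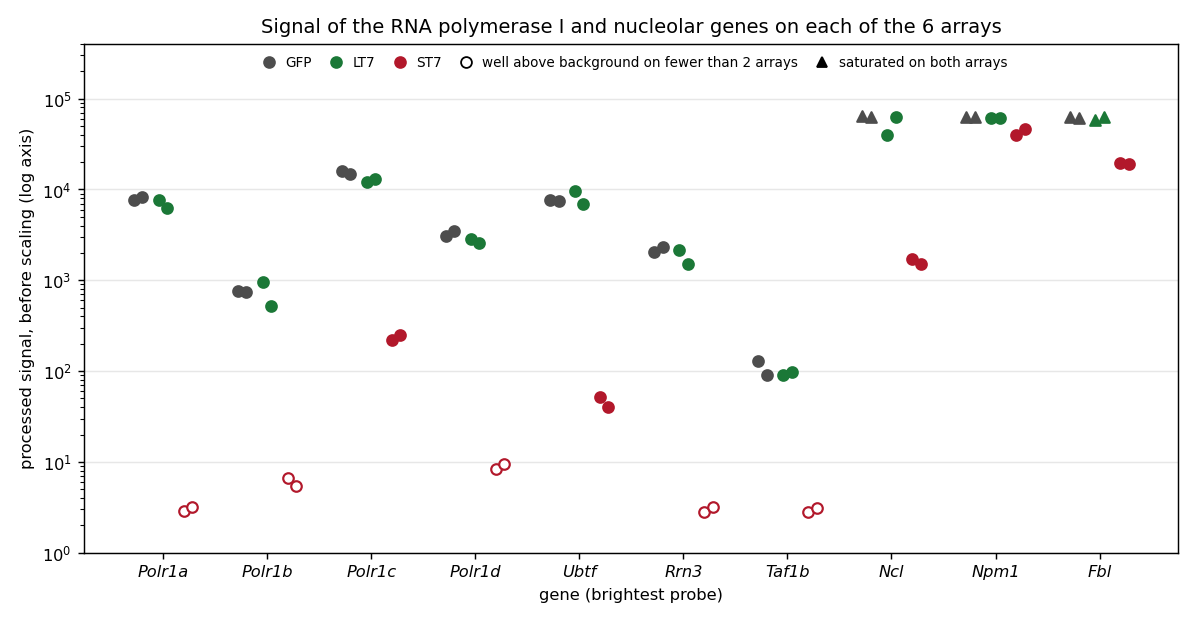
Processed signal before scaling, on a log axis, of the brightest probe of each gene on the 6 arrays, with 2 points per group. GFP and LT7 points lie side by side for every gene, and the ST7 points lie lower, from 2.84 for Taf1b to 45820 for Npm1; open points mark groups where the probe was detected on fewer than 2 arrays, and triangles groups where it was saturated on both.

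Polr1a encodes the largest subunit of RNA polymerase I, which holds part of the catalytic centre. Its signal was 7667 and 8332 in GFP, 7697 and 6306 in LT7, but 2.85 and 3.18 in ST7. The GFP and LT7 values overlapped, while both ST7 values were at the background of the array. LT7 differed from GFP by -0.10 on the log2 scale (SE 0.23, adjusted p = 0.85, limma), and ST7 by -6.98 (SE 0.23, adjusted p = 1.7e-05). Since the probe was not detected on either ST7 array, only a limit of the fold could be given, and Polr1a was at least 25.7-fold lower in ST7 after the shift. This limit sets the GFP mean against a floor, which on each ST7 array was the lowest signal of any detected probe, or the signal of the Polr1a probe where higher. In these bulk RNA samples, fewer cells with a transcript and less of it per cell cannot be told apart.

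Polr1b encodes the second-largest subunit, which forms the catalytic centre together with POLR1A. Its signal was 762 and 745 in GFP, 955 and 522 in LT7, but 6.61 and 5.43 in ST7. The LT7 replicates lay on either side of GFP, and their SD of 306 was far above that of GFP, 11.7 (n = 2). LT7 differed from GFP by 0.0056 on the log2 scale (SE 0.33, adjusted p = 0.995, limma), a sign that 4 of the 6 scalings turned, and ST7 by -2.57 (SE 0.33, adjusted p = 0.00069), where the gene was at least 2.42-fold lower and not detected.

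Polr1c and Polr1d encode a pair of assembly subunits that RNA polymerase I shares with RNA polymerase III. Polr1c was the brightest of the polymerase subunits, with 15926 and 14707 in GFP, 12017 and 12990 in LT7, but 222 and 250 in ST7. It was the one subunit whose brightest probe stayed detected on both ST7 arrays, so its fold was measured, 3.07-fold lower than in GFP after the shift (log2 change -1.62, SE 0.20, adjusted p = 0.00065, limma). Both LT7 values of Polr1c lay below both GFP values, but the difference of -0.19 (SE 0.20, adjusted p = 0.63, limma) was no larger than its error.

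The Polr1d probes were designed on different RefSeq transcripts. On the brightest, for NM_009087, the signal was 3090 and 3529 in GFP, 2880 and 2595 in LT7, but 8.31 and 9.39 in ST7. The other, for NM_181730, gave 2626 and 1995, 1450 and 2005, and 16.6 and 23.4. In LT7 the changes were -0.17 (SE 0.23) and -0.33 (SE 0.29), neither past the test. In ST7 both fell, by 4.15 (SE 0.23, at least 10.6-fold) and by 2.46 (SE 0.29, 5.51-fold) on the log2 scale, and only the probe for NM_181730 was detected there.

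Ubtf encodes UBF, which binds along the ribosomal DNA and keeps it in an open state. Its brightest probe had signals of 7581 and 7448 in GFP, 9567 and 6966 in LT7, but 51.7 and 39.8 in ST7. The other probe of the same transcript had 4054 and 4373, 4811 and 3692, and 11.4 and 47.0, and only 1 of its ST7 values was detected. Ubtf had the highest LT7 change of the 10 genes, 0.22 (SE 0.27, adjusted p = 0.69, limma), with LT7 replicates on either side of GFP, and it turned negative with spike-in scaling. In ST7 it fell on both probes, by 2.97 (SE 0.27, adjusted p = 0.00016) and by 3.11 (SE 0.65, adjusted p = 0.0056). The first of these is 7.85-fold, and no fold is given for the second, which was measured on 1 ST7 array.

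Rrn3 encodes TIF-IA, the growth-regulated factor that makes the polymerase competent to start. Its signal of 2044 and 2300 in GFP and 2175 and 1524 in LT7 dropped to 2.84 and 3.16 in ST7, the background level seen for Polr1a. Its difference from GFP was -0.15 for LT7 (SE 0.26, adjusted p = 0.79, limma). For ST7 it was -5.10 (SE 0.26, adjusted p = 1.8e-05), and Rrn3 was at least 6.98-fold lower there.

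Taf1b encodes a subunit of SL1 that resembles a general initiation factor of RNA polymerase II. It was the dimmest of the 10 genes, with 129 and 91.4 in GFP, 90.7 and 97.0 in LT7, but 2.84 and 3.14 in ST7. ST7 differed from GFP by -0.78 (SE 0.21, adjusted p = 0.015, limma), which turned to 0.93 with normexp background correction. The GFP level lay below the floor of the ST7 arrays after the shift, so no fold could be given, and the call was lost without GFP replicate 1 (adjusted p = 0.054) or without ST7 replicate 1 (0.075) or 2 (0.057).

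**Figure D2:**
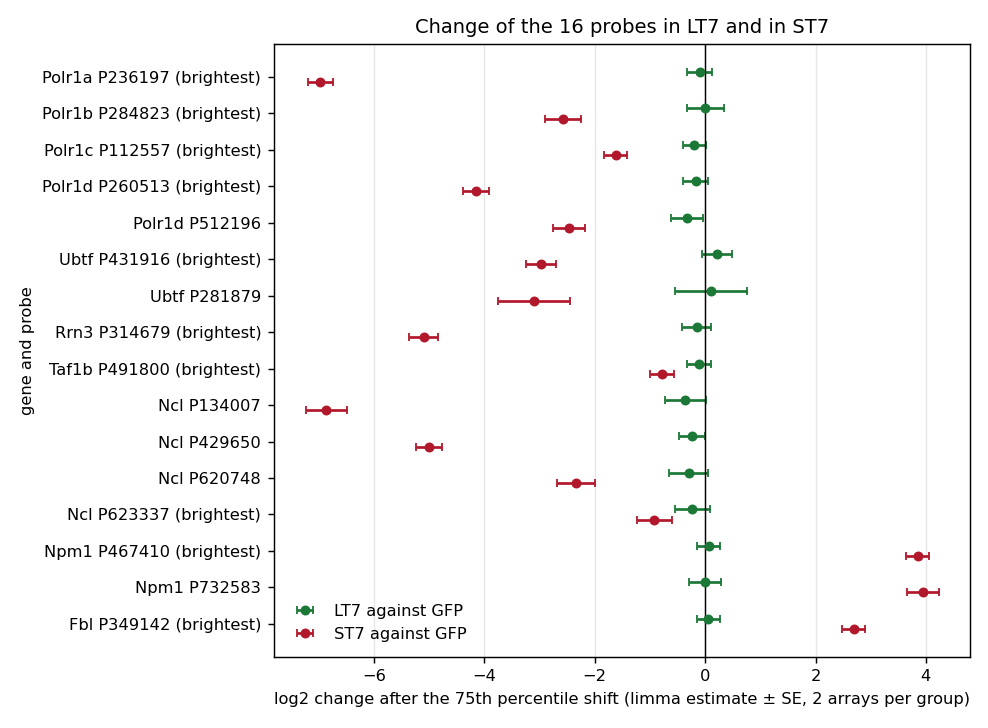
Log2 change against GFP after the 75th percentile shift for the 16 probes, as limma estimates with SE bars (2 arrays per group). The LT7 changes lie around 0, and the ST7 changes spread from -6.98 for Polr1a to 3.94 for Npm1, which, like Fbl, turned negative without scaling and with spike-in scaling, as Taf1b turned positive with normexp background correction. Points of probes not detected in ST7 or saturated in GFP are estimates of changes known only as limits.

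Ncl encodes nucleolin, an RNA-binding protein of the nucleolus that takes part in early steps of ribosomal RNA processing. It had 4 probes, all for NM_010880. A pair of them, P134007 and P623337, overlaps by 40 bases, and they are shown because they differ by 20 bases at each end and yet behaved differently in ST7. The shared bases are in capitals.
P134007: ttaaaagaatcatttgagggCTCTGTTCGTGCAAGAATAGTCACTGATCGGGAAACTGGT
P623337: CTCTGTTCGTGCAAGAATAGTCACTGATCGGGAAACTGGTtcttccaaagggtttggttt
Both were open in 1 of the 3 forward reading frames. Their positions in the genome and the gene were not analysed here.

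P134007 gave 57906 and 60007 in GFP, 33465 and 55226 in LT7, but 28.5 and 20.2 in ST7. P623337, the brightest Ncl probe, gave 64737 and 62899 in GFP, 40270 and 63568 in LT7, but 1712 and 1499 in ST7, and was saturated on both GFP arrays and on 1 LT7 array. Both ST7 values of each probe lay below all its GFP and LT7 values. Of the remaining probes, P429650 gave 2036 and 2230 in GFP, 1677 and 1702 in LT7, but 2.87 and 3.46 in ST7, and P620748 gave 439 and 416, 342 and 307, and 2.83 and 5.65.

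In LT7 the changes of the 4 Ncl probes ran from -0.36 to -0.24 (SE 0.23 to 0.37), none past the test. On the overlapping probes P134007 and P623337, replicate 1 was the lower of the LT7 arrays. Without it the change of P623337 was 0.14. On P620748 both LT7 values lay below both GFP values. In ST7, P134007 fell by 6.87 on the log2 scale (SE 0.37, 117-fold, adjusted p = 2.3e-05, limma), P429650 by 5.00 (SE 0.23, at least 6.86-fold) and P620748 by 2.34 (SE 0.35, at least 1.38-fold). P623337 fell by 0.92 (SE 0.32, adjusted p = 0.037), at least 1.89-fold since its GFP signals were saturated. This last call was lost with the replicate block and without any 1 of the GFP or ST7 arrays, with adjusted p between 0.066 and 0.14 in the latter.

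The changes of P134007 and P623337 differed by 5.95 in ST7 and by 0.12 in LT7, the former being an upper limit because P623337 was saturated in GFP. Neither probe was saturated on the array of LT7 replicate 1 or in ST7, and against that array P134007 changed by -6.10 in ST7 and P623337 by -0.30, a difference of 5.80 with no replicate of the LT7 value. Over 145 pairs of probes of a gene that share at least 30 bases and were detected on the GFP and LT7 arrays, the median difference was 0.68 in ST7 and 0.085 in LT7. Over 3922 genes with at least 2 such probes, with or without shared bases, the median range between probes of a gene was 0.25 in LT7 and 3.25 in ST7. Both medians include probes that were saturated in GFP or not detected in ST7. This comparison between probes was chosen after the data had been seen, and the cause of the disagreement was not tested.

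**Figure D3:**
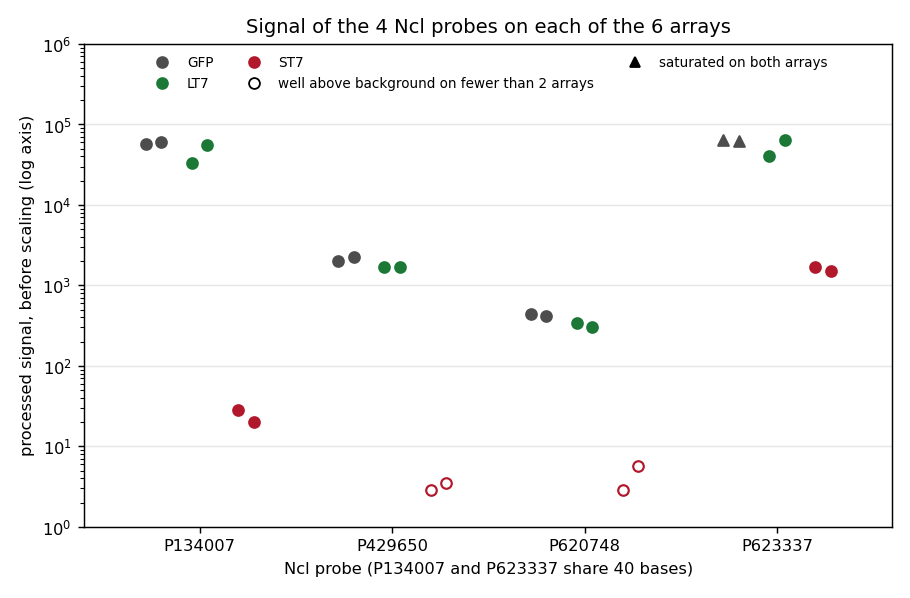
Processed signal before scaling, on a log axis, of the 4 Ncl probes on the 6 arrays (2 points per group; triangles, saturated on both arrays; open points, detected on fewer than 2 arrays). Of the probes P134007 and P623337, which share 40 bases, the first fell to 28.5 and 20.2 in ST7 and the second to 1712 and 1499.

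Npm1 encodes nucleophosmin, a chaperone of ribosomal proteins and histones that shuttles between the nucleolus and the cytoplasm. It kept the highest signal of the 10 genes in ST7. The brightest probe gave 63343 and 62313 in GFP, 61812 and 60915 in LT7, against 40135 and 45820 in ST7, and was saturated on both GFP arrays and on 1 LT7 array. The other probe was not saturated on any array and gave 35905 and 47627 in GFP, 43663 and 34002 in LT7, against 27611 and 32849 in ST7. On both probes the ST7 signals lay below all those of GFP and LT7 before scaling, by little in comparison with the other genes.

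After the shift the unsaturated probe of Npm1 was higher in ST7 than in GFP, with a log2 change of 3.94 (SE 0.29, adjusted p = 7.3e-05, 15.4-fold, limma), and without scaling it was lower, at -0.46. The brightest probe gave upper limits of 3.85 (adjusted p = 2.0e-05) and -0.55. Relative to the median change of all probes, the limit of the brightest probe was 0.13. In LT7 the changes were 0.06 (SE 0.20) and -0.0035 (SE 0.29), neither past the test.

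Fbl encodes fibrillarin, the methyltransferase of the box C/D small nucleolar ribonucleoproteins (snoRNPs), which also methylates histone H2A on the ribosomal DNA. Its signal was 63483 and 61772 in GFP, 58669 and 62728 in LT7, against 19420 and 18893 in ST7, and it was saturated on all GFP and LT7 arrays. The log2 change in ST7, computed from saturated GFP signals and therefore an upper limit, was 2.69 after the shift (adjusted p = 8.8e-05, limma), -1.71 without scaling, and -1.03 relative to the median change of all probes. A rise of Fbl after the shift was thus not measured, while its fall without scaling was at least of this size. No fold is given against the saturated groups, and the LT7 change of 0.05 (SE 0.21, adjusted p = 0.92) compares 2 saturated groups.

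A full order of the genes by their ST7 change could not be given, because 5 of the brightest probes were not detected in ST7 and 3 were saturated in GFP. The brightest probes measured on both sides were those of Ubtf (-2.97) and Polr1c (-1.62). The following values are estimates of the fits, with the same limits. Of 6 scalings, all gave a lower level in ST7 than in GFP for Polr1a (from -11.37 to -4.74), Polr1b (from -6.97 to -1.18), Polr1c (from -6.02 to -1.62), Polr1d (from -8.55 to -3.17), Ubtf (from -7.37 to -2.77), Rrn3 (from -9.50 to -2.80) and Ncl (from -5.32 to -0.92). For Taf1b 5 of them did, with 0.93 under normexp background correction as the exception. Npm1 (from -0.55 to 3.85) and Fbl (from -1.71 to 2.69) were above 0 under 4 scalings and below 0 under the other two, no scaling and the spike-in RNAs. The calls of Npm1 and Fbl were lost with quantile normalization, with adjusted p of 0.061 and 0.14 (limma).

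**Figure D4:**
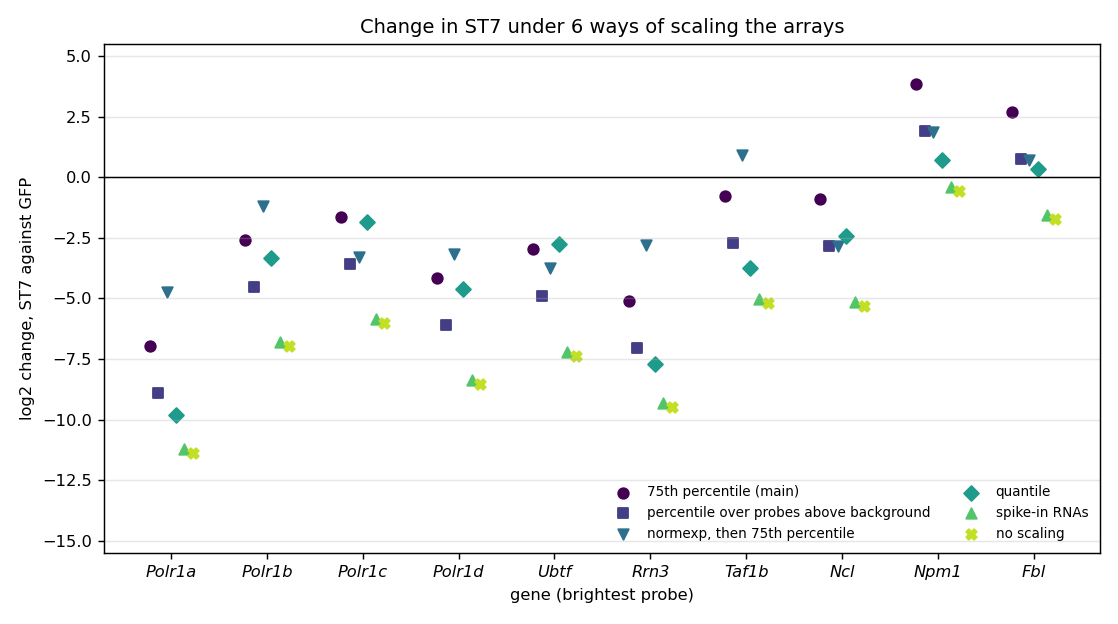
Log2 change in ST7 against GFP of the brightest probe of each gene under 6 ways of scaling the arrays. The points of Polr1a, Polr1b, Polr1c, Polr1d, Ubtf, Rrn3 and Ncl all lie below 0, those of Npm1 and Fbl lie on either side of it, and Taf1b lies above 0 with normexp background correction only.

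The median change of the 10 genes in ST7 moved with that of all probes. It was -2.10 after the shift, when that of all probes was 3.72, and -6.50 against -0.68 without scaling, a distance of -5.82 in each case, since the shift adds 1 value to all probes of an array. With a filter on dim probes, which left the 10 genes as they were, the median of all probes was 0.71 and the distance -2.81. With quantile normalization the medians were -3.06 and 0.37, a distance of -3.43, and with normexp background correction -2.82 and 2.23, a distance of -5.06.

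All 16 probes were detected on all GFP and LT7 arrays. In ST7, 8 of the 16 were detected on both arrays, 1 on 1 array and 7 on none. The share detected on both ST7 arrays was 33.5% of the 18111 RefSeq probes measured in GFP and 39.7% of the 6465 bright ones, against 89.3% and 99.8% in LT7. The sequences of the probes were also compared with this loss of signal, after the data had been seen. Of the 16 probes, 3 (for Polr1d on NM_009087, Rrn3 and Ncl P429650) had a stop codon in each of the 3 forward reading frames and none of them was detected in ST7, while 8 of the 13 with at least 1 open frame were. Over all RefSeq probes measured in GFP, 18.2% of 3274 without an open frame and 36.9% of 14837 with one were detected on both ST7 arrays, and the shares in LT7 were 92.0% and 88.6%.

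The other genes of the pathway were taken from lists of RNA polymerase I factors, snoRNP proteins and ribosome assembly factors. Of 9 further RNA polymerase I genes, none was called in LT7, and in ST7 2 were higher, 6 lower and 1 not called after the shift, with a median log2 change of -2.26. Without scaling the median was -6.66. For this list and those below, the ST7 calls stand beside 36.7% higher and 47.7% lower among RefSeq probes detected on both GFP arrays. Among RefSeq probes with a mean GFP signal of at least 1000 these shares were 23.8% and 70.8%. The subunits Polr1e (325 and 303 in GFP, 3.15 and 3.66 in ST7), Cd3eap (1729 and 1762, 2.86 and 3.15) and Twistnb (1865 and 1704, 3.30 and 3.87) were at background in ST7, as were the SL1 subunits Taf1a, Taf1c and Taf1d, which changed by -2.26, -3.08 and -4.44. Their levels relative to GFP were at least 1.01-fold lower for Polr1e, 5.62-fold for Cd3eap, 5.74-fold for Twistnb and 4.71-fold for Taf1d.

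Znrd1, a small subunit of the polymerase, stayed detected on its brightest probe (2771 and 2809 in GFP, 3729 and 3024 in LT7, 141 and 158 in ST7), with a change of 0.17 after the shift (adjusted p = 0.47, limma) and lower signals before it. Its other probe had 1748 and 1499 in GFP and 10.7 and 7.89 in ST7, and fell by 3.06. Tbp, the TATA-binding protein shared by all the polymerases, and Ttf1, the terminator factor of ribosomal DNA, were called higher after the shift (2.42 and 2.41) while their signals were lower before it, with 123 and 103 in GFP against 14.8 and 54.7 in ST7 for Tbp and 70.1 and 70.5 against 20.1 and 15.5 for Ttf1. The second probe of each was not called, with changes of 0.48 and -0.40. Of the 9 genes 2, Znrd1 among them, were detected on both ST7 arrays and 6 on neither. Tbp and Ttf1 were thus not both detected on both ST7 arrays.

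In LT7 the median change of 9 snoRNP proteins, the partners of fibrillarin among them, was -0.49 (from -1.16 to 0.21) with none called, and their summed signal was 92656 and 97761 in GFP against 72641 and 67765 in LT7. In ST7 2 of them were higher and 7 lower, with a median of -5.22. That list median includes signals at background, since 6 of the 9 were detected on neither ST7 array. Nop56, a core protein of the same box C/D particles as fibrillarin, had 49640 and 49836 in GFP, 32929 and 33007 in LT7, but 30.02 and 40.5 in ST7, a change of -6.08 (67.6-fold lower, adjusted p = 1.7e-05, limma). Rrp9, the U3 snoRNP protein U3-55k and a substrate of SIRT7, moved the other way, with 999 and 975 in GFP, 844 and 713 in LT7, against 1693 and 1697 in ST7. It was higher in ST7 than in GFP both after the shift (5.18, 36.2-fold, adjusted p = 1.7e-05) and, as signals, before it. Of the 87 pathway genes on the array, 2 (Rrp9 and Polr2h, a subunit shared by the polymerases) had a higher unscaled level in ST7 than in GFP, and Polr2h had 528 and 655 in GFP and 1331 and 1359 in ST7.

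Of 20 proteins of the small subunit processome, which assembles on the nascent ribosomal RNA, 3 were higher, 15 lower and 2 not called in ST7 (median -3.73), from Utp3 at -2.53 to Heatr1 at 3.75 among the genes detected on all arrays. Of 19 large subunit assembly factors, 5 were higher, 12 lower and 2 not called (median -3.99), with Bop1 at -3.99 and Rrp12 at 4.37. Of 9 regulators of ribosomal DNA chromatin and transcription, 4 were higher and 5 lower (median -1.07), with Tcof1 at -1.07 and Hmgb1 at 4.19. Lower calls made up 47.7% of all RefSeq probes detected on both GFP arrays and 70.8% of the bright ones. In these lists the genes named are the lowest and highest of the 5, 8 and 5 genes detected on all arrays. Over the whole lists the lowest estimates were -8.07, -8.27 and -6.37, each for a gene not detected on all arrays. The list medians include signals at background, since 15 of the 20, 10 of the 19 and 4 of the 9 genes were detected on neither ST7 array. All these values were taken after the shift, and before it the signals of Heatr1 (1790 and 1684 in GFP, 1074 and 1146 in ST7) were lower in ST7, while those of Hmgb1 (43247 and 54645, 39383 and 45019) and Rrp12 (421 and 485, 449 and 440) overlapped.

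The subunits of the other nuclear polymerases did not move as 1 group either. Of 4 shared subunits, 2 were higher and 2 lower in ST7, with Polr2f at -1.93 and Polr2h at 5.59. Of 7 subunits of RNA polymerase II, 4 were higher and 3 lower (median 1.93, with Polr2c at -2.51 and Polr2b at 4.22), and of 10 of RNA polymerase III, 3 were higher and 7 lower (median -2.36, with Polr3e at 3.10 and Polr3a at 3.47). The genes named are the lowest and highest of the 3, 5 and 2 genes detected on all arrays. Over the whole lists the lowest estimates were -6.59, -8.44 and -5.25, each for a gene not detected on all arrays. Detection differed between the lists, as 1 of the 4, 2 of the 7 and 8 of the 10 genes were detected on neither ST7 array. The list medians were not corrected for this. Without scaling the medians of these lists were -4.37, -2.47 and -6.76. None of the genes of the 8 lists was called in LT7.

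**Figure D5:**
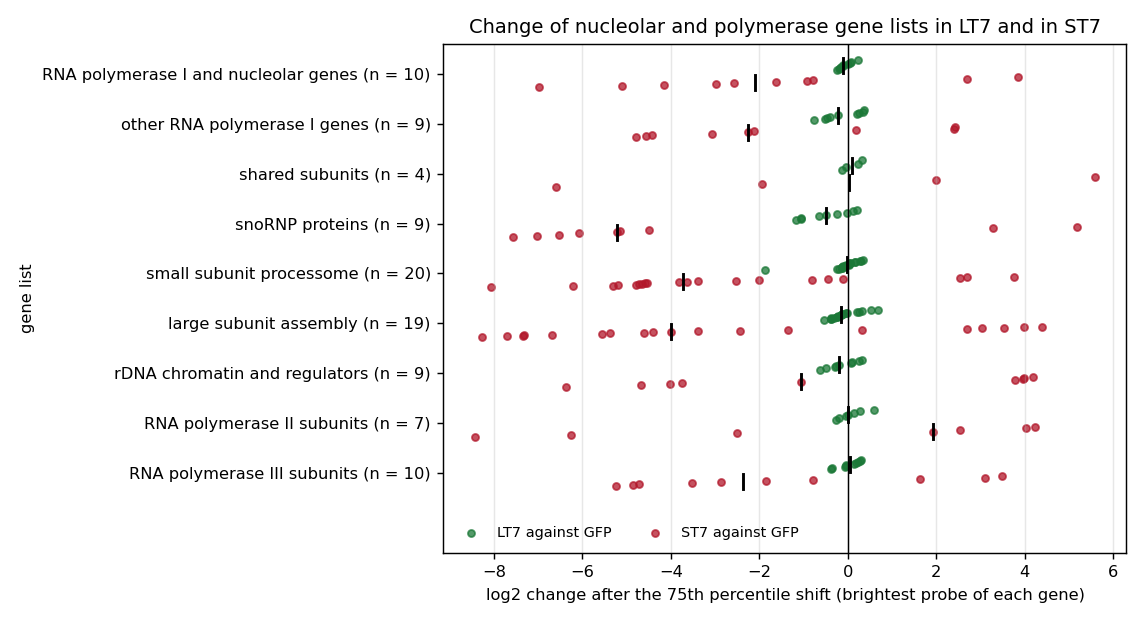
Log2 change against GFP after the 75th percentile shift for each gene (brightest probe) of the 10 RNA polymerase I and nucleolar genes and of 8 further lists, with a black bar at the median of each list. The ST7 points and medians include genes not detected on the ST7 arrays. The LT7 medians lie between -0.49 (snoRNP proteins) and 0.085, while the ST7 points of each list lie on both sides of 0; without scaling all ST7 points would lie lower by 1 constant, which takes the median of the 10 genes from -2.10 to -6.50.

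The mean pattern of the 5 members detected on all arrays (Polr1c, Ubtf, Ncl, Npm1 and Fbl) was compared with other genes. These were 5519 probes of other RefSeq genes that were detected on all 6 arrays. The 3 genes most like it were Hist1h2af, Rps10 and Mlec, with root mean square distances over the 6 arrays of 0.048, 0.060 and 0.063 on the log2 scale. Rps10, a protein of the small ribosomal subunit, had signals of 49265 and 51892 in GFP, 45883 and 43955 in LT7, but 2702 and 2690 in ST7. The mean pattern averages genes as far apart as Ubtf and Npm1, so it describes no single one of them. Saturated signals of Ncl, Npm1 and Fbl in GFP and LT7 entered it, so the distances rest partly on them.

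Promoter sequences were in the RefSeq table (GRCm38.p6, 250 bases before to 50 after each start) for 8 of the 10 genes, all but Npm1 and Fbl, with 13 promoters in all. The E-box CACGTG, which reads the same on both strands and overlaps no other motif searched, was found in 1 of these 13 promoters (7.69%), that of Rrn3, where it occurred 215 and 48 bases before the start. It was found in 2349 of all 32851 promoters (7.15%).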

How the data were processed

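RNA of 2 replicates each of GFP, LT7 and ST7 cells was measured on 6 arrays. The deposited scanner files hold, per spot, an intensity (processed signal) from which the authors' Agilent Feature Extraction software (10.5.1.1) had subtracted the background, with flags for spots well above background, saturated or outlying. The series matrix that the authors deposited holds log2 values after a 75th percentile shift made in GeneSpring, and between 3 and 11 probes per array differed from the recomputed values by more than 0.01.

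Outlier spots and the 1319 control spots of 62976 were left out, the 50 repeated probes were averaged, and the 75th percentile of log2 signal was subtracted per array. All 6 arrays entered 1 limma fit (3.58.1, R 4.3.3), p-values were adjusted by Benjamini-Hochberg within a contrast across the probes, with a threshold of 0.05, and the code was tested on simulated data. Other steps used Python 3.11.15. A gene is given by its brightest probe over the 6 arrays. Repeated probes counted as well above background where over 50% of their spots were. The number of arrays limits the precision. The genes and the pathway lists were chosen with earlier results of these data known. The genes named are the 10 genes, Sirt7, the further RNA polymerase I genes, Rrp9, the cell type markers, the gene with the lowest and the highest ST7 change per other list among genes well above background on all arrays, and the 3 genes of most like pattern. The alternatives were other scalings (none, quantile, a percentile over the probe set measured above background on all 6 arrays, 4 spike-in RNAs), normexp background correction (offset 50), the authors' matrix, outliers kept, a filter on dim probes, only the arrays compared, replicate and scan blocks, each array left out, the mean over probes and the fold rule.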

Additional observations from a re-analysis of the deposited data

Results flagged for a closer look

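For 9 of the 10 genes the change against GFP differed between the SIRT7-overexpressing lines by the limma contrast of ST7 with LT7, in which the GFP arrays cancel. The change in ST7 minus that in LT7 was -6.88 for Polr1a, -2.58 for Polr1b, -1.43 for Polr1c, -3.97 for Polr1d, -3.19 for Ubtf, -4.95 for Rrn3 and -0.67 for Taf1b after the percentile shift, with adjusted p between 2.5e-05 and 0.026. Of all probes, 71% were called higher and 19.7% lower in this contrast, so the count of 9 lies at the rate of the whole array. The difference was 3.78 for Npm1 and 2.64 for Fbl after the shift, and -0.52 and -1.66 without scaling. These are upper limits, because Fbl was saturated in LT7 and this Npm1 probe on 1 LT7 array. The unsaturated Npm1 probe gave 3.95 and -0.36. All values moved with the scaling, by which the median of all probes in this contrast was 3.59 after the shift and -0.71 without scaling. Ncl, at -0.68, an upper limit since its probe was saturated on 1 LT7 array, was not past the threshold (adjusted p = 0.0895).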

How the results depend on the processing

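In LT7 against GFP no gene was called under any alternative, the replicate block (0 called) included. The median change there was -2.27 with spike-in scaling, which rests on LT7 replicate 1, and -0.18 to 0.069 with 1 array left out. Single LT7 changes, none past the test, changed sign: Polr1b -0.093 (no scaling), -0.037 (quantile), -0.0073 (percentile over probes above background), -2.16 (spike-in) and -0.38 (scan block), Ubtf -1.95 (spike-in), Taf1b 0.036 (normexp), Ncl 0.14 (scan block), Npm1 -0.034 (no scaling) and -2.10 (spike-in), and Fbl -0.046 and -2.11. Leave-one-out ranges were -0.28 to 0.084 for Polr1a, -0.38 to 0.39 for Polr1b, -0.39 to 0.045 for Polr1d, -0.36 to 0.054 for Rrn3, -0.23 to 0.012 for Taf1b, -0.62 to 0.14 for Ncl, -0.047 to 0.18 for Npm1 and -0.051 to 0.16 for Fbl.

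In ST7 against GFP the number of genes called was 8 to 10 under the alternatives with no array left out, with 2 higher and 7 lower under the replicate block. The calls over all probes moved far more. They went from 43372 higher and 12162 lower after the shift to 2624 and 25571 with no scaling, 20203 and 15073 with quantile normalization and 264 and 14080 with spike-in scaling (limma). The replicate numbers did not pair the arrays throughout (correlations of 0.078 for GFP and LT7, 0.035 for GFP and ST7 and -0.023 for LT7 and ST7 over all probes, and of 0.086, 0.327 and -0.030 over probes above background on all arrays). The median change of -2.10 moved to -6.50 with no scaling, -3.06 with quantile normalization, -4.04 with the percentile over probes above background, -6.33 with spike-in scaling, -2.82 with normexp and -2.81 with the mean over probes. Changes of sign were Taf1b 0.93 (normexp), Npm1 -0.55 and -0.39 and Fbl -1.71 and -1.55 (no scaling and spike-in). Against LT7 the median of -2.00 moved to -6.30, -3.16, -3.93, -4.07, -2.64 and -2.82 in the same order, 4 genes were called with spike-in scaling against 9, and Taf1b turned to 0.89 (normexp), Npm1 to -0.52 and Fbl to -1.66 (no scaling). Over all probes, spike-in scaling called 854 higher and 8022 lower against LT7, where the shift had called 43512 and 12062 (limma). Beyond the scalings' own arithmetic the cause of these moves was not tested. Low signal in ST7 limits 5 genes to a bound or no fold, and saturation limits Ncl, Npm1 and Fbl.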
